A study of Sus scrofa with 20 samples.

Results

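Probe sets for the genes of microRNA silencing were followed across 20 hippocampus arrays of German Landrace pigs, 10 from high-reactive (HR) and 10 from low-reactive (LR) animals. The 10 genes were TNRC6A, TNRC6B, TNRC6C, AGO1, AGO2, AGO3, AGO4, DICER1, DROSHA and DGCR8, and their probe sets were found by the gene symbol in the platform annotation, where the old Argonaute names were read as AGO names. This gave 42 of the 47845 probe sets in the value table, for 9 of the 10 genes. All animals were of the same breed, and each array held the RNA of 1 animal. The labels call the pigs adult, and per the study's methods they were killed at a few months of age. Per the study's methods, HR and LR are the extremes of coping in early life, scored by how a piglet reacts when it is held on its back. The animals were also chosen by their haplotypes at a coping quantitative trait locus (QTL) on chromosome 12, so behaviour and haplotype cannot be told apart here. None of the sources used here gives the animals' sex, litter or array batch. TNRC6C had been among the probe sets with the smallest p in HR against LR when these genes were proposed, so the HR against LR values of the members are given as a description.

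MicroRNAs are short RNAs that lower the output of messenger RNAs carrying matching sites. In the nucleus, DROSHA and its RNA-binding partner DGCR8 cut the primary transcript into a hairpin, and in the cytoplasm DICER1 cuts the hairpin into a short duplex. An Argonaute protein (AGO1 to AGO4) holds the mature strand and pairs it with the target, and AGO2 is the Argonaute that can itself slice a well matched target in mammals. The TNRC6 proteins (TNRC6A, TNRC6B and TNRC6C, also called GW182 proteins) bind Argonaute and bring in the deadenylases that shorten the tail of the target. In neurons the pathway is known for work on local translation near synapses.

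The values are log2 probe set values from a robust multichip average (RMA), so a difference of 1 is a doubling of signal. A probe set counted as measured where its mean over all arrays was above 5.53, the median of all non-control probe sets, and 23861 probe sets passed. The arrays correlated with each other at 0.844 to 0.988. The first principal component, computed over these 23861 probe sets and signed so that HR had the higher mean, held 48.0% of the variance. Its score had a mean and SD of 8.41 ± 31.2 over the 10 HR arrays and of -8.41 ± 27.0 over the 10 LR arrays. GC-rich background controls, which match no pig transcript, averaged 7.31 ± 0.20 in HR and 7.50 ± 0.20 in LR. The number in the sample title, whose meaning is not stated, averaged 2863 ± 109 in HR and 2601 ± 225 in LR. Markers of the tissue were measured, with the neuronal gene SYT1 at 12.3, the astrocyte transporter SLC1A3 at 12.6, the myelin gene MBP at 13.5, the granule cell factor PROX1 at 8.39 and the pyramidal cell gene CPNE4 at 10.4. PROX1 was the only 1 of 3 granule cell markers that passed, with CALB1 and DSP below the filter level. TTR, a product of the choroid plexus, was at 10.1, and the mean of 4 measured choroid plexus markers ran from 6.75 to 8.52 in HR and from 6.67 to 8.23 in LR, with AQP1 and OTX2 below the filter level. The other brightest markers were CCK of interneurons at 11.5, OLIG2 of oligodendrocyte precursors at 8.50, C1QC of microglia at 10.2 and FLT1 of endothelium at 8.83. RGS5 of pericytes was at 9.31, COL1A2 of meninges at 8.48, FOXJ1 of ependyma at 7.54 and HBB of blood at 9.08. The blood cell markers PTPRC and CD3E were below the filter level. In bulk tissue of this kind, fewer cells of a type and less RNA per cell cannot be told apart.

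The scaffolds of silencing were the best covered members. TNRC6B had 11 probe sets, of which 10 were above the filter level, TNRC6A had 5 with 4 above, and TNRC6C had 3 with all 3 above. AGO1 had 4 with 3 above, AGO4 had 4 with 1 above, and the only AGO2 probe set was above. No probe set carried the name of AGO3, so this Argonaute was not analysed. For the nucleases, DICER1 had 7 probe sets with 3 above, while both DROSHA probe sets were below, at means of 3.44 and 3.14. DGCR8 had 4 messenger RNA probe sets with 2 above. The remaining probe set annotated to DGCR8 was made for the hairpin of human mir-1306, whose pig counterpart MIR1306 lies inside the DGCR8 gene, and it was kept apart from the DGCR8 messenger RNA. In all, 28 of 42 probe sets passed, 27 of them for messenger RNAs, and the closest to the level were TNRC6B SNOWBALL_042375_st at 5.94 and TNRC6C SNOWBALL_026509_st at 5.95 above it, and AGO4 SNOWBALL_035779_st at 5.52 and DICER1 SNOWBALL_042214_st at 5.49 below it.

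In the Sscrofa11.1 annotation the members lie on 7 numbered chromosomes. AGO4 (chromosome 6, 91967499 to 92013030), AGO1 (92038104 to 92076477) and AGO3 (92081763 to 92225811) are neighbours within 258 kb, with gaps of 25.1 kb and 5.29 kb. AGO2 lies alone on chromosome 4, from 2966794 to 3012388. TNRC6B is on chromosome 5 (8052434 to 8311811), DICER1 on chromosome 7 (116361630 to 116436471), DROSHA on chromosome 16 (17727695 to 17847954) and DGCR8 on chromosome 14 (51473512 to 51489535, with MIR1306 from 51473918 to 51473997). TNRC6A is on an unplaced scaffold. TNRC6C, from 3847522 to 3939054, shares chromosome 12 with the coping QTL but lies 44.6 Mb from it, taking the QTL from the start of METTL16 at 48491254 to the end of ATP1B2 at 52932638.

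TNRC6C was read by 3 probe sets that gave offsets of different size. SNOWBALL_026509_st, the dimmest of them, had a lowest, median and highest value of 5.67, 6.21 and 6.42 in HR, against 5.20, 5.74 and 6.12 in LR. Of the HR arrays 8 of 10 were above every LR array, and HR replicate 1 was the low array of its group. The mean was higher in HR by 0.46 ± 0.10 (SE of the limma fit), or 1.38-fold. SNOWBALL_022168_st gave 6.75, 7.35 and 7.48 in HR, against 6.40, 7.03 and 7.48 in LR, a difference of 0.30 ± 0.12. Here 9 of 10 HR arrays were above the LR median but the top LR array reached the HR maximum, and HR replicate 1 was again the low array. The brightest, SNOWBALL_032387_st, gave 7.52, 7.67 and 7.95 in HR, against 7.50, 7.59 and 7.81 in LR. The ranges of the groups overlapped up to 7.81, a value that LR replicate 1 alone reached, with the next LR array at 7.64. On this probe set 8 of 10 HR arrays were above the LR median, and the difference was 0.09 ± 0.06.

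**Figure D1:**
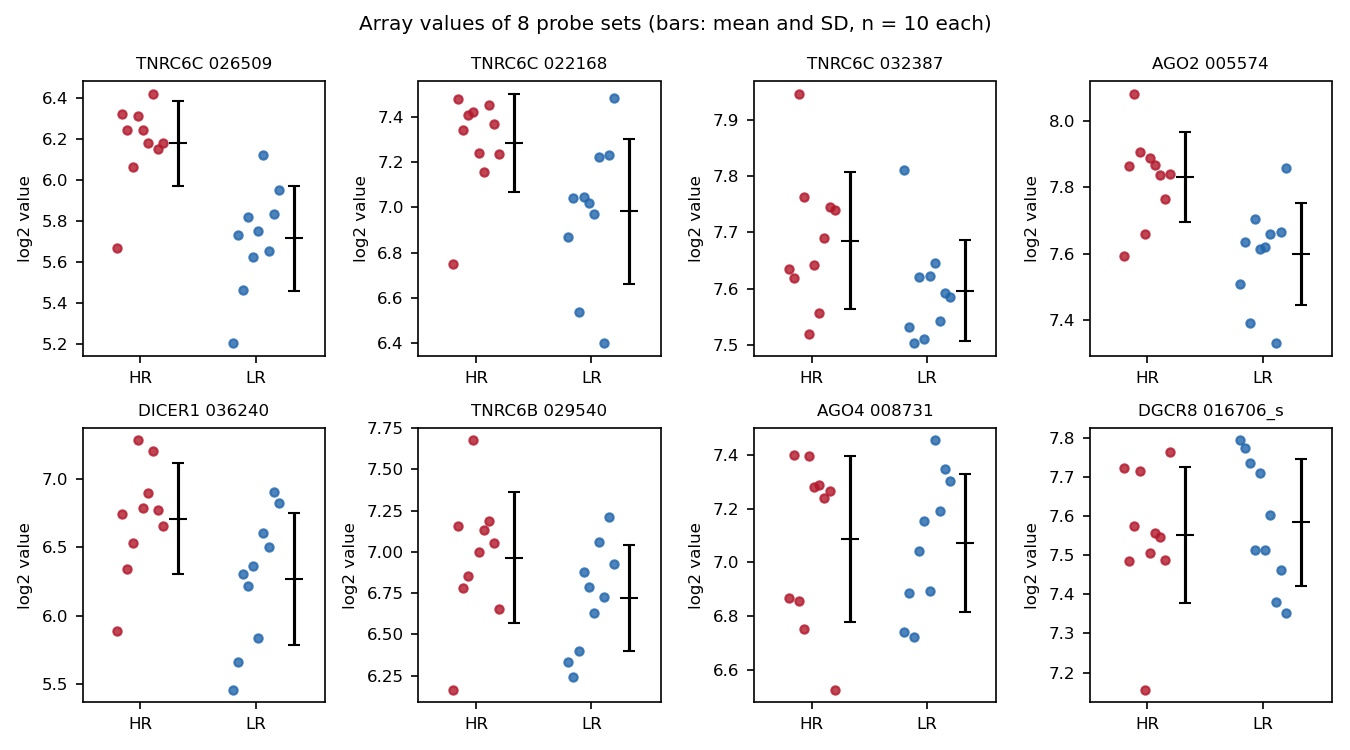
Log2 values of 8 probe sets of the silencing genes, 1 panel each and with its own vertical scale, with HR arrays on the left and LR arrays on the right. Points are arrays and bars give the mean and SD of 10 arrays. In the panel of TNRC6C SNOWBALL_026509_st, 8 of 10 HR arrays are above all LR arrays, while AGO4 and DGCR8 show no such offset.

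TNRC6B means were higher in HR on all 10 measured probe sets, by 0.11 to 0.36. Of these 10, 8 had a lower mean in HR once the title number was a covariate, and likewise 8 with the GC-rich background. The probe set with the widest offset, SNOWBALL_026166_st, gave a lowest, median and highest value of 7.76, 8.26 and 8.95 in HR, against 6.98, 7.96 and 8.68 in LR, a difference of 0.36 ± 0.17. On SNOWBALL_029540_st the values were 6.16, 7.03 and 7.68 in HR, against 6.24, 6.76 and 7.21 in LR, a difference of 0.25 ± 0.15. On every TNRC6B probe set the ranges of the groups overlapped, and on 6 of the measured ones no HR array was above all LR arrays. The probe set below the filter level, SNOWBALL_028704_st, differed by 0.01 ± 0.10.

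TNRC6A differed less between the groups than its own spread between arrays. Its brightest probe set, SNOWBALL_030170_st, gave 7.22, 7.77 and 8.58 in HR, against 7.36, 7.71 and 8.39 in LR, and the difference was 0.07 ± 0.15. The other 3 measured probe sets differed by 0.08 to 0.20, each with an SE of similar size or larger. HR replicate 5 held the highest value of SNOWBALL_030170_st, and without it the difference was -0.02.

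Among the Argonautes, AGO2 had the clearest offset. SNOWBALL_005574_st gave 7.59, 7.85 and 8.08 in HR, against 7.33, 7.63 and 7.86 in LR, and 9 of 10 HR arrays were above the LR median. The difference was 0.23 ± 0.07, or 1.17-fold, and it stayed between 0.20 and 0.26 when any 1 array was left out. AGO1 SNOWBALL_029655_st gave 7.15, 7.43 and 7.66 in HR, against 6.72, 7.16 and 7.55 in LR, a difference of 0.24 ± 0.10. The other measured AGO1 probe sets differed by 0.17 ± 0.09 (SNOWBALL_027263_st) and 0.07 ± 0.06 (SNOWBALL_008633_st). AGO4, the neighbour of AGO1, had nearly equal means. Its measured probe set SNOWBALL_008731_st gave 6.53, 7.25 and 7.40 in HR, against 6.72, 7.10 and 7.45 in LR, a difference of 0.01 ± 0.12, and the 3 dim AGO4 probe sets differed by 0.01 to 0.06.

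DICER1, which makes the mature duplex, had 3 measured probe sets, and all had a higher mean in HR. SNOWBALL_036240_st gave 5.89, 6.76 and 7.28 in HR, against 5.46, 6.33 and 6.91 in LR, with 9 of 10 HR arrays above the LR median. The difference was 0.44 ± 0.18, or 1.36-fold, the largest after that of TNRC6C SNOWBALL_026509_st among the measured members. SNOWBALL_021890_st differed by 0.24 ± 0.10 and SNOWBALL_035192_st by 0.13 ± 0.12, and the 4 dim DICER1 probe sets by 0.01 to 0.27.

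The members of the nuclear cutting step had small differences in both directions. DGCR8 SNOWBALL_016706_s_st gave 7.16, 7.55 and 7.76 in HR, against 7.35, 7.56 and 7.79 in LR, a difference of -0.03 ± 0.08. SNOWBALL_024133_st gave 7.04, 7.51 and 7.69 in HR, against 7.43, 7.53 and 7.76 in LR, a difference of -0.09 ± 0.08. The groups overlapped on both, and HR replicate 5 was the low array on SNOWBALL_016706_s_st. The mir-1306 probe set differed by -0.005 ± 0.165, and the DROSHA probe sets, both dim, by -0.003 ± 0.104 and -0.11 ± 0.13. The dim DGCR8 probe sets differed by 0.05 ± 0.08 (SNOWBALL_033049_st) and -0.12 ± 0.10 (SNOWBALL_038331_st).

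**Figure D2:**
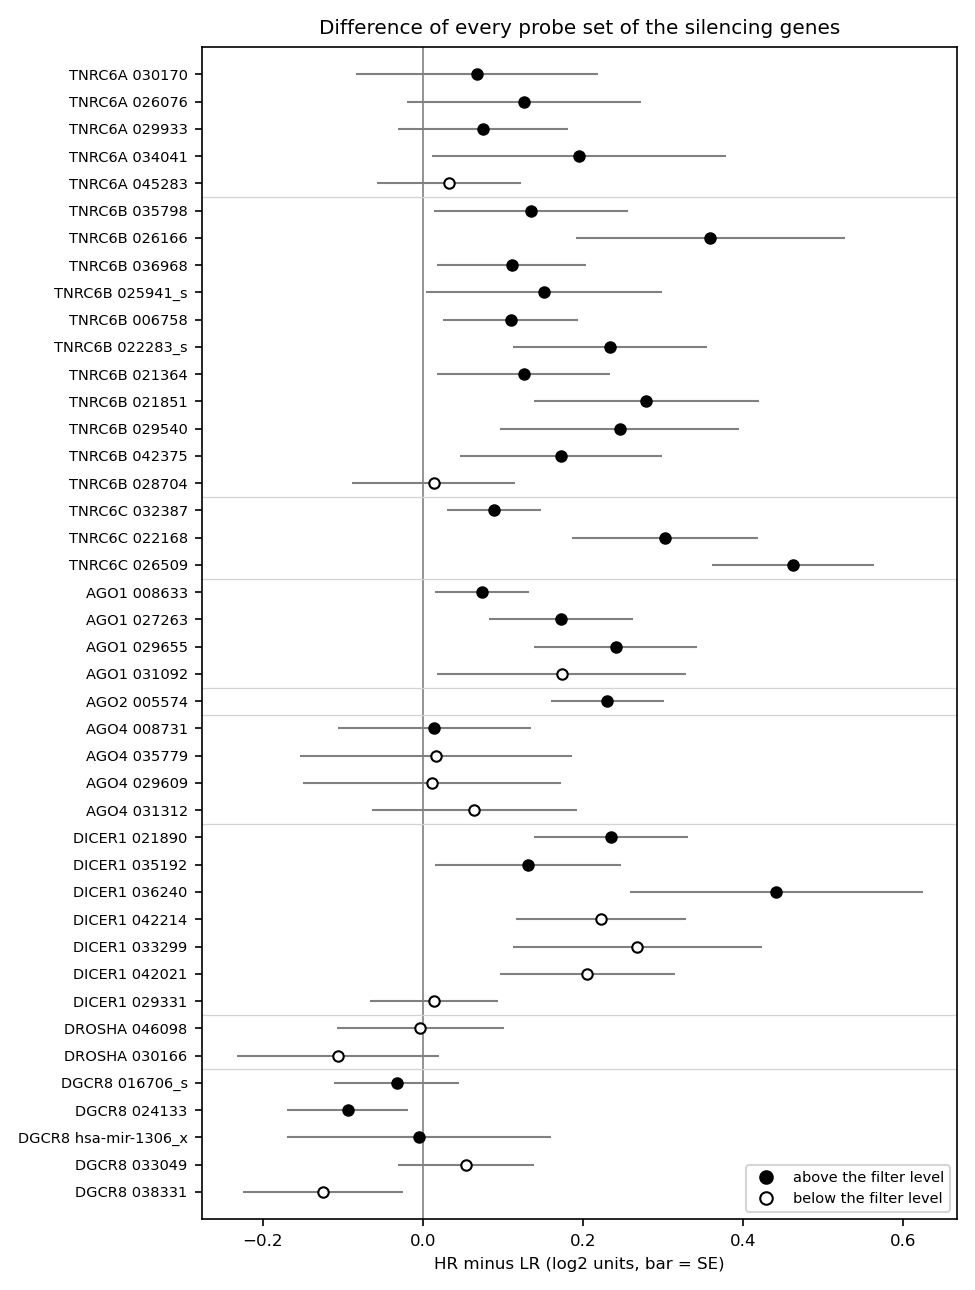
HR minus LR difference in log2 units (horizontal axis) for all 42 probe sets annotated to the silencing genes, grouped by gene from top to bottom. Points are differences, bars are the SE of the limma fit, filled points are above the filter level and open points below it. The longest distance from 0 is that of TNRC6C SNOWBALL_026509_st at 0.46, and the DROSHA, AGO4 and DGCR8 points lie near 0.

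Over all 23861 measured probe sets, 0 passed an adjusted p of 0.05 (limma, Benjamini-Hochberg), which is 0% of those tested, and so 0 of the 27 messenger RNA probe sets of the silencing genes did. At an unadjusted p under 0.05, 7 of the 27 were higher in HR and 0 lower, beside 7.78% higher and 3.74% lower over all measured probe sets. By the exact Wilcoxon test, 0 of the 23861 passed after adjustment, and 2294 had an unadjusted p under 0.05. The 7 were TNRC6C SNOWBALL_026509_st and SNOWBALL_022168_st, AGO2, AGO1 SNOWBALL_029655_st, DICER1 SNOWBALL_021890_st and SNOWBALL_036240_st, and TNRC6B SNOWBALL_026166_st. The mean was higher in HR for 25 of the 27, against 45.9% of all measured probe sets, and the median difference was 0.15 for the members and -0.01 for all. None of the 42 probe sets had groups without overlap, and over all measured probe sets the share without overlap was 0%. These counts come from the contrast that was known when the genes were proposed, and the probe sets of a gene are not independent of each other. Without HR replicate 1 the unadjusted count of members was 12 higher in HR and 0 lower, beside 2838 higher and 1659 lower of all 23861. In that fit 110 of all measured probe sets passed the adjusted threshold. TNRC6C SNOWBALL_026509_st was among them, with an adjusted p of 0.0286 (limma) at a difference of 0.52. The array left out was the low HR array of this same probe set. This was its lowest adjusted p in the fits without 1 array, and with all arrays it was 0.275 (limma).

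Whether probe sets of 1 gene moved together over the animals was tested with the group means taken out, which makes it independent of the HR against LR difference. There were 112 pairs of probe sets of the same gene, each tested with 100000 permutations within the groups and adjusted over the 112. Among the 61 pairs of measured messenger RNA probe sets, 60 had a positive Pearson correlation, the median r was 0.80, and 54 passed the adjusted threshold by r and 50 by Spearman's rho. Measured pairs from different member genes had a median r of 0.53. How many such pairs would pass for genes outside the members was not counted. Among the 47 pairs with a dim probe set the median r was 0.19 and 8 passed. The closest agreement was between TNRC6A SNOWBALL_030170_st and SNOWBALL_034041_st at r = 0.93. All 6 TNRC6A pairs passed, 41 of 45 TNRC6B pairs passed, and all 3 DICER1 pairs passed with r of 0.66 to 0.77. With the first principal component also taken out, the median r was 0.49 for TNRC6B, but 0.10 for TNRC6A and 0.003 for DICER1, where the highest r was 0.10.

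TNRC6C was split by r with the group means taken out. Its dimmer probe sets SNOWBALL_022168_st and SNOWBALL_026509_st agreed, with r = 0.70 (permutation adjusted p = 0.00571) and rho = 0.77 (permutation adjusted p = 0.000692), and r was 0.68 without the 2 arrays farthest from the median. The brightest probe set SNOWBALL_032387_st followed neither, with r = 0.16 against SNOWBALL_022168_st (permutation adjusted p = 0.570) and rho = 0.18 (permutation adjusted p = 0.558). Against SNOWBALL_026509_st it had r = -0.13 (permutation adjusted p = 0.668) and rho = -0.03 (permutation adjusted p = 0.923), and without the 2 farthest arrays these r were 0.30 and 0.20. With the first principal component also taken out, SNOWBALL_032387_st had r = 0.51 and 0.36 with these probe sets, and the median of the 3 TNRC6C pairs was 0.51. The sources used here do not say which transcript regions or forms they read.

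The brightest AGO1 probe set SNOWBALL_008633_st also stood somewhat apart. It had r = 0.50 with SNOWBALL_027263_st (permutation adjusted p = 0.0341, by rho 0.0775) and r = 0.36 with SNOWBALL_029655_st (permutation adjusted p = 0.152), which without the 2 farthest arrays were 0.34 and 0.17. The other AGO1 pair had r = 0.80 (permutation adjusted p = 0.000249) and rho = 0.75 (permutation adjusted p = 0.00121). The AGO4 probe sets that fell below the filter level still followed the measured one, SNOWBALL_008731_st, with r of 0.81, 0.83 and 0.61. All 3 passed by r, but the pair with SNOWBALL_031312_st missed by rho (rho = 0.47, permutation adjusted p = 0.0759). The 2 DGCR8 messenger RNA probe sets had r = 0.69 with each other (permutation adjusted p = 0.00404, rho = 0.65), and the mir-1306 probe set had r = 0.07 and 0.39 with them, with permutation adjusted p of 0.797 and 0.0916. By rho its pair with SNOWBALL_024133_st passed (rho = 0.53, permutation adjusted p = 0.0353). The DROSHA probe sets had r = 0.34 (permutation adjusted p = 0.200).

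**Figure D3:**
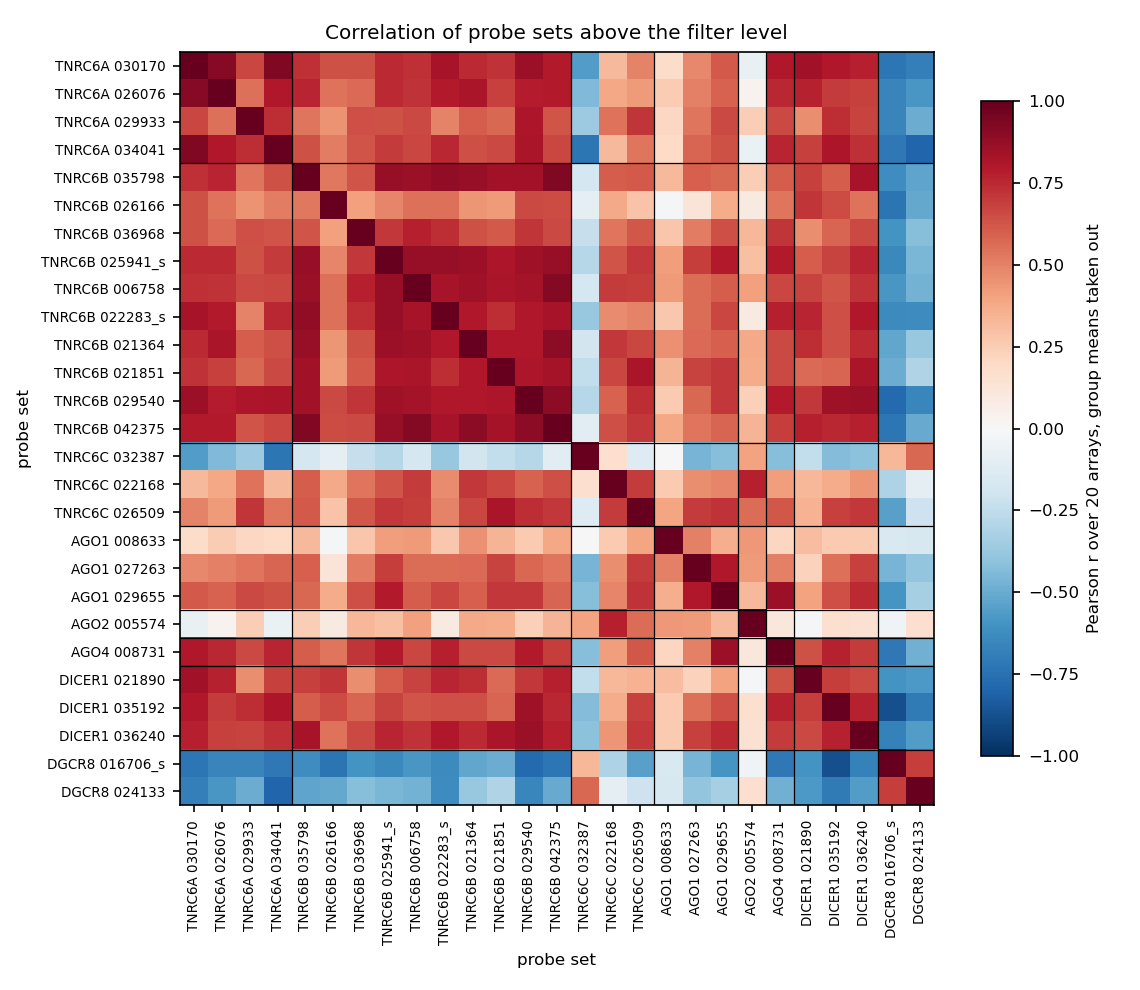
Pearson r between the 27 messenger RNA probe sets above the filter level, over 20 arrays with the group means taken out, both axes ordered by gene. Red is positive and blue negative. A red block joins TNRC6A, TNRC6B, AGO4 and DICER1. It also takes in TNRC6C SNOWBALL_026509_st and AGO1 SNOWBALL_029655_st and SNOWBALL_027263_st, with a median r with other members of 0.62, 0.61 and 0.53. The DGCR8 rows are mostly blue, and the rows of AGO2 and of TNRC6C SNOWBALL_032387_st are mostly pale or blue. Exceptions are cells such as AGO2 with TNRC6C SNOWBALL_022168_st at 0.78 and SNOWBALL_032387_st with DGCR8 SNOWBALL_024133_st at 0.58.

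Different members also moved together. Over 290 pairs of measured probe sets from different member genes the median r was 0.53, and 155 pairs passed with a positive and 33 with a negative r (154 and 24 by rho, permutation tests adjusted over the 290). The median r of the members with all other measured probe sets was -0.15. With the first principal component also taken out, these 2 medians were 0.12 and 0.01. How many pairs of other measured probe sets would pass was not counted. The measured AGO4 probe set followed AGO1 SNOWBALL_029655_st of the neighbouring gene at r = 0.85 (permutation adjusted p = 0.000483, rho = 0.84). With AGO1 SNOWBALL_027263_st and SNOWBALL_008633_st its r was only 0.50 and 0.22. Members that are not its neighbours came close, with TNRC6A SNOWBALL_030170_st at 0.80 and TNRC6B SNOWBALL_029540_st at 0.79. The AGO4 probe set had a positive r that passed with 20 of 26 probe sets of other members. DGCR8 ran the other way. SNOWBALL_016706_s_st had a negative r that passed with 20 of 25 probe sets of other members, the strongest with DICER1 SNOWBALL_035192_st at r = -0.88 (permutation adjusted p = 0.000483, rho = -0.83, and r = -0.84 without the 2 farthest arrays). By rho 18 of these 25 passed. SNOWBALL_024133_st had 11 such negative pairs and 1 positive pair of 25 by r, and 5 and 0 by rho.

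AGO2 stood outside the block. Of its 26 pairs with other members 2 passed by r and 1 by rho, and its median r with them was 0.24. The pair that passed by both was AGO2 with TNRC6C SNOWBALL_022168_st, at r = 0.78 (permutation adjusted p = 0.00148) and rho = 0.59 (permutation adjusted p = 0.0197). This r was 0.47 within HR and 0.97 within LR, and 0.61 without the 2 farthest arrays. The pair of AGO2 with TNRC6C SNOWBALL_026509_st had r = 0.56 (permutation adjusted p = 0.0255), which missed the threshold by rho (permutation adjusted p = 0.0545).

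The block followed the main axis of variation among the arrays. With the group means taken out, 210 relations were tested, of 42 probe sets with 5 array measures. Of the 27 measured messenger RNA probe sets, 21 had a positive r with the first principal component that passed and 3 a negative one (21 and 2 by rho). The median r over these 27 was 0.75, beside -0.38 over all measured probe sets. The component was computed over probe sets that include these 27. The share of all measured probe sets that would pass with any of the 5 measures was not counted. TNRC6A SNOWBALL_030170_st had r = 0.95 (permutation adjusted p = 0.000105), rho = 0.94 and r = 0.94 without the 2 farthest arrays. AGO4 SNOWBALL_008731_st and DICER1 SNOWBALL_035192_st each had r = 0.88, with 0.88 and 0.82 without those arrays.

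DGCR8 SNOWBALL_016706_s_st had r = -0.82 with the component (permutation adjusted p = 0.000509, rho = -0.84), and -0.73 without the 2 farthest arrays. DGCR8 SNOWBALL_024133_st had r = -0.70 (permutation adjusted p = 0.00399), and -0.55 without them. For the brightest TNRC6C probe set r was -0.57 (permutation adjusted p = 0.0330), but by rho it did not pass (permutation adjusted p = 0.109) and r was -0.36 without the 2 farthest arrays. The TNRC6C probe set with the widest HR offset, SNOWBALL_026509_st, had r = 0.63 (permutation adjusted p = 0.00966, rho = 0.64), and 0.56 without the 2 farthest arrays. AGO2 had r = 0.04 (permutation adjusted p = 0.878) and rho = 0.16, so its level was not detectably tied to this axis. With the component also taken out, the median r of probe sets of the same gene was 0.46 and that of different member genes was 0.12.

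**Figure D4:**
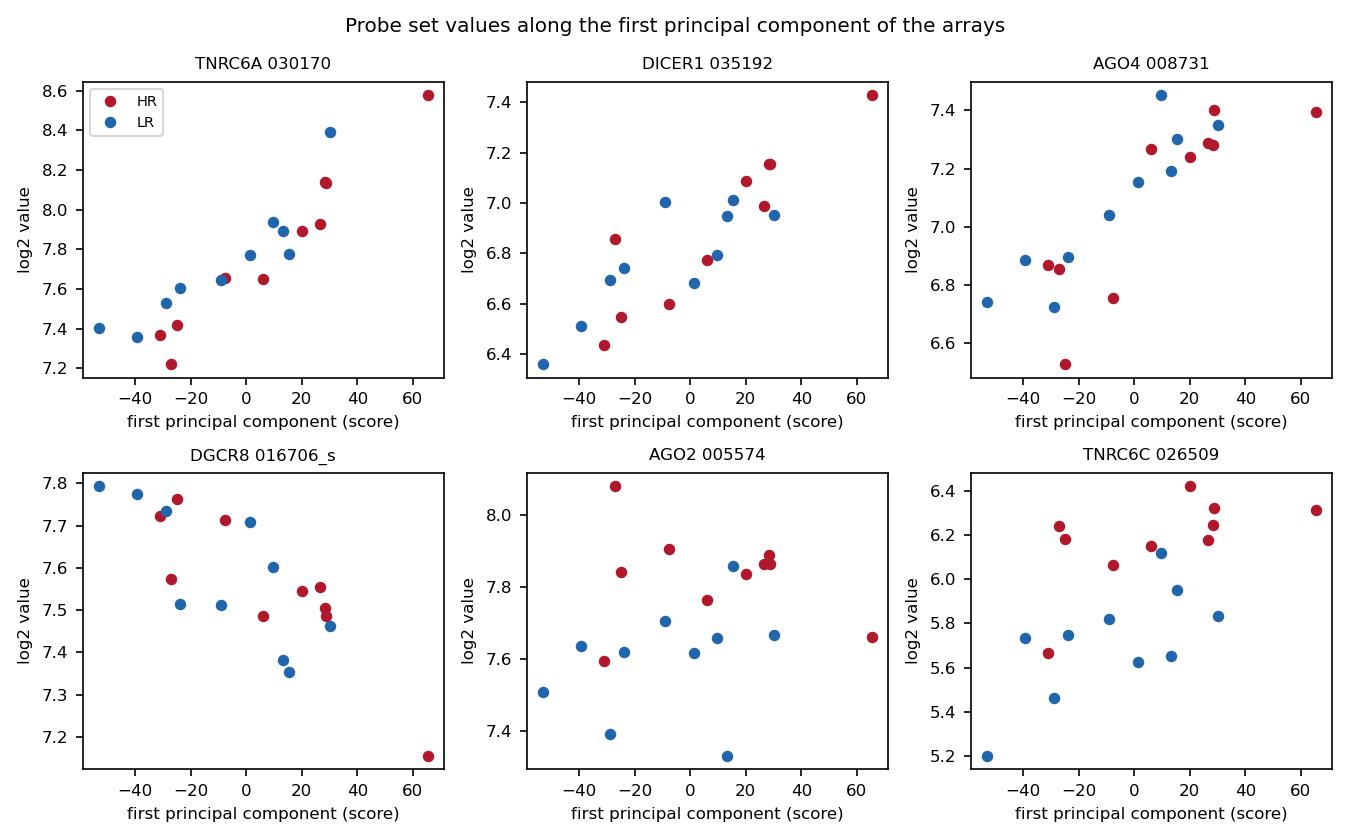
Log2 values of 6 probe sets (vertical axes) against the score of each array on the first principal component (horizontal axes), with HR arrays in red and LR arrays in blue, 10 each. TNRC6A, DICER1 and AGO4 climb along the component at r of 0.88 to 0.95, DGCR8 descends at r = -0.82 and AGO2 has no slope at r = 0.04. In the TNRC6C panel 8 of 10 HR arrays lie above every LR array, and the values climb with the score at r = 0.63.

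Over the arrays, with the group means taken out, the component itself had r = -0.88 with the GC-rich background controls and r = 0.58 with the title number, both given as a description. Of the 27 measured probe sets, 21 had a negative r with the GC-rich background that passed and 1 a positive one (the same counts by rho), with a median r of -0.79 beside 0.28 over all measured probe sets. TNRC6B SNOWBALL_029540_st had r = -0.91 (permutation adjusted p = 0.000105), and DGCR8 SNOWBALL_016706_s_st had r = 0.72 (permutation adjusted p = 0.00399). TNRC6C SNOWBALL_026509_st had r = -0.82 (permutation adjusted p = 0.000175) with the background and r = 0.71 with the title number (permutation adjusted p = 0.0103). The relation with the title number did not pass by rho (permutation adjusted p = 0.184) and r was 0.17 without the 2 farthest arrays. For AGO2 r with the background was -0.33 (permutation adjusted p = 0.239). With the title number 10 relations were positive and 1 negative past the threshold, or 8 and 0 by rho. The median r was 0.49, beside -0.13 over all measured probe sets. With the choroid plexus markers none of the 27 passed, and with the oligodendrocyte markers, which averaged 10.96 ± 0.11 in HR and 11.00 ± 0.12 in LR, 7 passed with a negative and 1 with a positive r. The median r was -0.36 with the choroid plexus and -0.46 with the oligodendrocyte markers, beside 0.15 for each over all measured probe sets. The part of these measures in the levels of the members was not tested.

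With an array measure as a covariate, the differences changed to an unlike degree between probe sets. All 3 measured TNRC6C probe sets and the only AGO2 probe set stayed higher in HR with the first principal component, with the GC-rich background and with the title number as covariate. SNOWBALL_026509_st differed by 0.38 ± 0.08 with the component, 0.28 ± 0.07 with the GC-rich background and 0.22 ± 0.10 with the title number. TNRC6C SNOWBALL_022168_st differed by 0.24 ± 0.11, 0.13 ± 0.10 and 0.18 ± 0.14 with the same 3 covariates. AGO2 differed by 0.23 ± 0.07, 0.18 ± 0.07 and 0.18 ± 0.09. TNRC6C SNOWBALL_032387_st, whose difference was small, was at 0.12 ± 0.05, 0.13 ± 0.06 and 0.15 ± 0.07. None of these passed an adjusted p of 0.05 in their fits. The title number nearly separated the groups, so fits with it can hardly tell the number from the group.

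DICER1 SNOWBALL_036240_st was at 0.22 ± 0.10 with the component, 0.07 ± 0.11 with the GC-rich background and -0.05 ± 0.16 with the title number. DICER1 SNOWBALL_021890_st was at 0.14 ± 0.07, 0.10 ± 0.08 and 0.17 ± 0.12. The remaining measured DICER1 probe set, SNOWBALL_035192_st, had a lower mean in HR with each covariate, at -0.006 ± 0.064, -0.07 ± 0.09 and -0.08 ± 0.13. AGO1 SNOWBALL_029655_st was at 0.13 ± 0.07, 0.06 ± 0.07 and 0.03 ± 0.11, and SNOWBALL_008633_st also kept a higher mean in HR in these fits. AGO1 SNOWBALL_027263_st was at 0.10 ± 0.07, 0.03 ± 0.07 and -0.05 ± 0.08. TNRC6B, whose direction turned on most probe sets with the title number and the GC-rich background, kept a higher mean in HR on 9 of 10 with the component. TNRC6B SNOWBALL_026166_st stayed higher, at 0.21 ± 0.14 with the component, 0.16 ± 0.16 with the GC-rich background and 0.25 ± 0.21 with the title number. All 4 measured TNRC6A probe sets and the AGO4 probe set had a lower mean in HR with each of these covariates, down to -0.21 ± 0.11 for TNRC6A SNOWBALL_030170_st with the GC-rich background. With the title number 10 of the 27 members had a higher mean in HR, with the GC-rich background 12 and with the component 19. At an unadjusted p under 0.05, 1 member was higher in HR and 0 lower with the title number, beside 1.62% and 1.21% of all measured probe sets. With the GC-rich background 3 were higher and 1 lower (AGO4), beside 3.58% and 3.35%. With the component 5 were higher and 1 lower (TNRC6A SNOWBALL_030170_st), beside 7.42% and 6.11%.

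**Figure D5:**
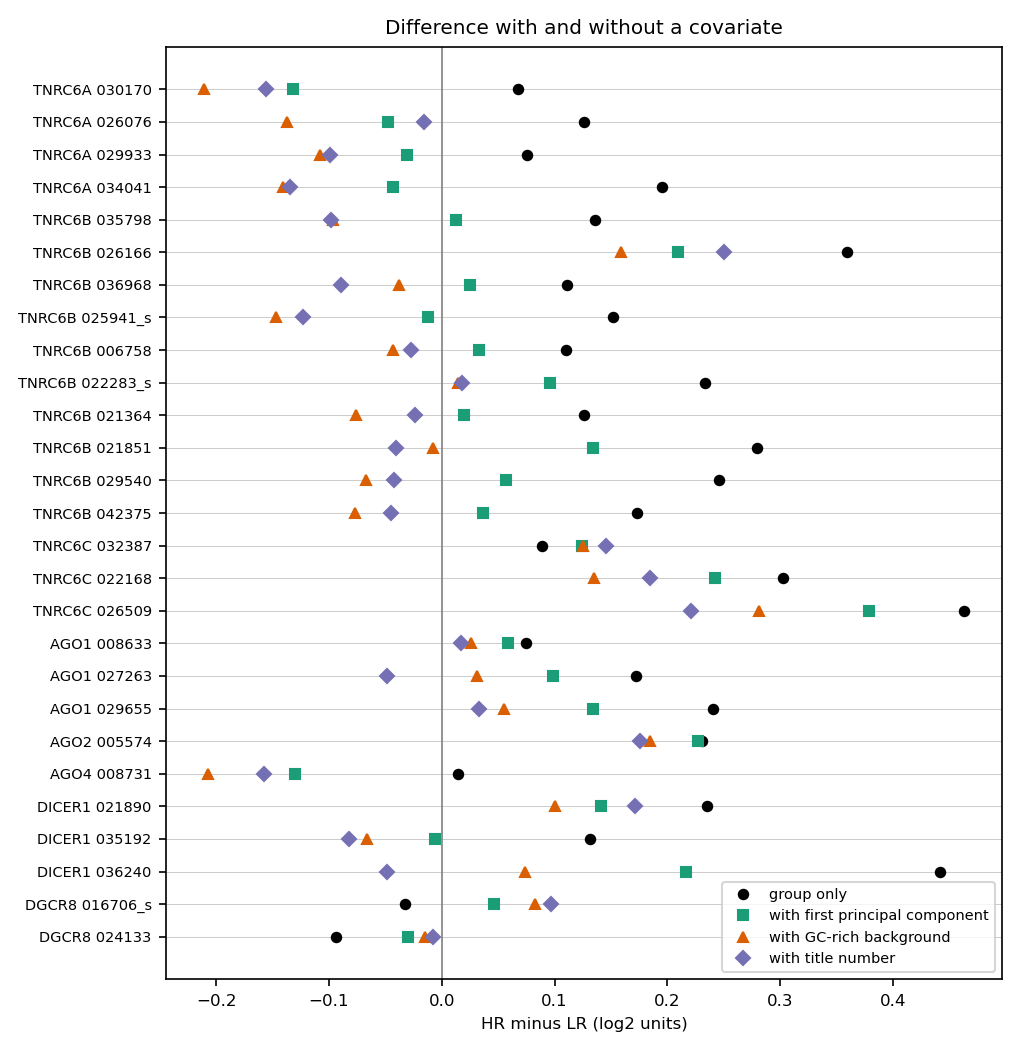
HR minus LR difference in log2 units (horizontal axis) of the 27 messenger RNA probe sets above the filter level, in the fit with the group only and in fits that add the first principal component, the GC-rich background or the title number. TNRC6C and AGO2 stay right of 0 in all 4 fits, as do some probe sets of AGO1, TNRC6B and DICER1. TNRC6A and AGO4 pass to the left of 0 with each covariate, as do DICER1 SNOWBALL_035192_st and TNRC6B SNOWBALL_025941_s_st.

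The partners of these proteins were read from 6 lists of other microRNA pathway genes, of which 49 of 62 genes had a measured probe set, taken as the brightest per gene. None passed the adjusted threshold, 2 were higher in HR and 0 lower at an unadjusted p under 0.05, beside 7.10% higher and 3.35% lower over the brightest measured probe sets of 10313 genes. A higher mean in HR was found for 24 of the 49, beside 44.4% of these genes, and the median difference was -0.01 beside -0.02. Both genes were in the list of CCR4-NOT and PAN2-PAN3 deadenylases, which TNRC6 proteins recruit, where 9 of 12 had a higher mean in HR. CNOT6, a catalytic deadenylase, averaged 6.35 ± 0.44 over HR arrays and 5.90 ± 0.44 over LR arrays (SD), and its limma adjusted p was 0.372. CNOT4, a ubiquitin ligase that associates with the complex, averaged 9.06 ± 0.17 in HR and 8.91 ± 0.10 in LR (limma adjusted p = 0.403).

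In the microRNA processing and export list 5 of 7 had a higher mean in HR, and the smallest p were those of the helicase DDX17, with a difference of 0.16 ± 0.08, and of the editing enzyme ADAR, with -0.11 ± 0.08. Of the loading factors 1 of 7 had a higher mean in HR, and none had an unadjusted p under 0.05. PRKRA, a partner of DICER1, differed by -0.14 ± 0.08 and the chaperone HSP90AA1 by -0.16 ± 0.12. For decapping and translational repression 4 of 10 were higher, with LSM14A at 0.24 ± 0.12 and the decapping activator DCP1A at 0.37 ± 0.22. The 4 measured DCP1A probe sets disagreed, with differences of -0.39 to 0.43. For tailing and turnover 2 of 6 were higher, with the uridylyltransferase TUT4 at 0.23 ± 0.20 and the deadenylase PARN at -0.09 ± 0.08. Among Argonaute partners 3 of 7 were higher, with FMR1 at -0.15 ± 0.09 and FXR2 at -0.10 ± 0.08. None of these genes had an unadjusted p under 0.05 except CNOT6 and CNOT4.

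The genes whose pattern over the 20 arrays was most like that of a member, with the group means taken out and 16475 to 16477 named measured probe sets searched, differed between the probe sets of TNRC6C. They were SORCS3 (r = 0.92), JOSD2 (0.91) and EHD4 (0.83) for SNOWBALL_032387_st, CBLN4 (0.84), OTUD7A (0.82) and ARID1B (0.82) for SNOWBALL_022168_st, and RRN3, SERTAD2 and NOVA1 (0.89 each) for SNOWBALL_026509_st. For AGO2 they were PDRG1 (0.87), KDM2A (0.85) and ELAVL3 (0.85). With the first principal component taken out, the AGO2 values were 0.88, 0.90 and 0.86. For DICER1 the nearest were RGS7BP (0.86), LACTB2 (0.86) and ZKSCAN1 (0.85) for SNOWBALL_021890_st, NKAP (0.93), TAOK3 (0.92) and SLC2A12 (0.92) for SNOWBALL_035192_st, and NUDT4 (0.96), CEP68 (0.96) and TBC1D12 (0.95) for SNOWBALL_036240_st. With the component taken out these 9 values were 0.60 to 0.80. No gene was shared between these lists of 3.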

How the data were processed

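The hippocampus RNA of 20 pigs had been hybridised to Affymetrix porcine Snowball arrays. The deposited log2 values were made by the authors with RMA, which corrects background, equalises array distributions and summarises probes, and which hides any change common to most transcripts of an array. The submitters' processing notes name GCOS 1.1.1. The authors' detection calls were not used here. Gene symbols came from the platform annotation and can be old, and 26426 probe sets carried 1 symbol and 21296 none. After removal of 123 controls, the 47722 others were filtered at the median of their means. The smallest SD of the log2 difference between 2 arrays was 0.224, so no array was a copy of another. Arrays have no read depth, and their number limits the precision.

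HR and LR were compared in limma 3.58.1 (lmFit and eBayes, R 4.3.3), two-sided, with p-values adjusted by Benjamini-Hochberg over every probe set kept (threshold 0.05). Correlations (Python 3.11.15, numpy 2.4.6) used 100000 permutations within the groups, and 1e-05 was the smallest p they could give. Both tests were tested on simulated data with independent noise, which lacks the variation that probe sets share in the real arrays. Alternatives were other filters, 1 probe set per gene, covariates, array weights, centring, the exact Wilcoxon test and leaving out each array. Replicate numbers follow accession order and pair nothing.

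The members, lists and tests were chosen with earlier results of these data known. All member probe sets were read out, and those not named singly are given by range or count. Also named were, in each pathway list the 2 genes with the smallest p, the 3 genes most like each TNRC6C, AGO2 and DICER1 probe set, and the brightest marker of each cell type list.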

Additional observations from a re-analysis of the deposited data

Results flagged for a closer look

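In 7 of 84 checks, of 42 probe sets in 2 groups of 10 arrays, the lowest or highest array was set off from the nearest other array by more of the group's range than Dixon's critical value for 10 samples, which chance gives in about 1 group in 20. HR replicate 1 was the low array on TNRC6C SNOWBALL_022168_st at 6.7488, against 7.1542 for the next HR array, and on TNRC6C SNOWBALL_026509_st at 5.6671, against 6.0645. HR replicate 5 was the low array on DGCR8 SNOWBALL_016706_s_st at 7.1557. LR replicate 1 was the high array on TNRC6C SNOWBALL_032387_st at 7.8113, against 7.6448, and the low array on DICER1 SNOWBALL_042214_st, a dim probe set, at 4.8939. LR replicate 9 was the high array on TNRC6A SNOWBALL_026076_st at 7.5882 and on TNRC6B SNOWBALL_022283_s_st at 8.3669. HR replicate 5 had the highest and LR replicate 1 the lowest score on the first principal component, at 65.3 and -53.0.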

How the results depend on the processing

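No paired analysis was possible because the labels give no replicate numbers that tie HR to LR animals. The count of all probe sets past the adjusted threshold, 0, was 1 with the first principal component, 2 with 1 probe set per gene, 947 with array weights, and 0 to 110 when 1 array was left out, with 110 without HR replicate 1. The 2750 at an unadjusted p under 0.05 became 4495 without the filter, 1596 with a stricter filter, 1110 with 1 probe set per gene, 675 with the title number, 1654 with the GC-rich background, 4730 with choroid plexus markers, 5611 with array weights, and 1888 (without LR replicate 1) to 4497 (without HR replicate 1) without 1 array. Of the members, 0 passed the adjusted threshold, but 3 did with array weights, and 0 to 1 without 1 array. The 7 members higher in HR at an unadjusted p became 2 with 1 probe set per gene, 1 with the title number, 3 with the GC-rich background, 11 with choroid plexus markers, 14 with array weights, 4 by the exact Wilcoxon test, and 5 to 12 without 1 array. The median member difference of 0.15 was -0.0276 with the title number, -0.0146 with the GC-rich background, 0.0466 with the first principal component, 0.0818 with 1 probe set per gene, 0.0951 with oligodendrocyte markers, and 0.10 to 0.21 without 1 array. Of pathway genes, 2 had an unadjusted p under 0.05, both higher in HR. The count was 1 with the stricter filter or oligodendrocyte markers, higher in HR, and 1 with the title number, lower in HR. With the first principal component it was 9, of which 1 was higher and 8 lower, beside 7.42% and 6.11% of all measured probe sets. With the GC-rich background it was 3, all lower, beside 3.58% higher and 3.35% lower. It was 6 with choroid plexus markers (5 higher), 5 with array weights (all higher), 4 by the exact Wilcoxon test (3 higher), and 1 to 7 without 1 array. The count of pathway genes past the adjusted threshold was 0 throughout, and their median difference was -0.02 to 0.02 without 1 array. The median r of probe sets of the same gene, 0.80, was 0.46 with the first principal component taken out, and 0.74 to 0.81 without 1 array. Of 809 recomputed member differences 806 moved by less than 1 SD, and 3 by more, all with the title number (TNRC6C SNOWBALL_026509_st 0.22, AGO1 SNOWBALL_027263_st -0.05, DICER1 SNOWBALL_036240_st -0.05). A move of less than 1 SD could still reverse a difference, so these counts do not show that directions held. Fitted on the group only, 2 of the 27 members had a lower mean in HR. That count rose to 15 after adjusting for GC-rich controls, and to 17 after adjusting for the number in the titles. The causes were not tested. DROSHA was read by dim probe sets only, where small differences are drawn together by RMA.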
